A study of Mus musculus with 39 samples.

Results

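Genes of apoptosis and of the p53 pathway were measured in small pools of fluorescence-sorted neocortical cells, taken from mouse embryos on embryonic days 13 (E13) and 16 (E16). The list holds 37 genes named by symbol and Ensembl identifier, and 30 of them had a mean count of 10 or more over the libraries kept, out of 11472 such genes among 53379 listed. The genes were named by their known roles, and the list was drawn up with earlier results of these data known. The study asked how imprinting on chromosome 7 bears on cortical cells, their survival included.

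Most cell death in the developing cortex runs through mitochondria. BCL2-like guardians hold the pore-forming proteins BAX and BAK in check, BH3-only proteins relieve that block, and cytochrome c released from mitochondria joins APAF1 to activate the initiator caspase CASP9, which starts the executioner caspases that XIAP and its relatives restrain. The transcription factor p53, encoded by Trp53, is held low by MDM2 and MDM4, and when it is active it raises the transcription of Bax, Bbc3 (PUMA), Pmaip1 (NOXA), Mdm2, Ccng1 and Cdkn1a. Much of this control acts on proteins, which were not measured here.

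All embryos bore the MADM-7 cassettes, the chromosome 7 version of the system called Mosaic Analysis with Double Markers (MADM), and Cre recombinase driven by Emx1, a promoter active in progenitors of cortical projection neurons and glia. The background was given as mixed C57BL/6J and CD1, and the strain label as CD1. Recombination between homologous chromosomes in a dividing cell gives rise to a few cells labelled red by tdTomato or green by GFP, which hold both copies of chromosome 7 from 1 parent, which is uniparental disomy (UPD), and yellow cells that hold a maternal and a paternal copy. Cells with maternal UPD (matUPD) carry 2 copies of the allele from which the imprinted gene Cdkn1c is expressed, and cells with paternal UPD (patUPD) carry none. The sample labels give age, colour and replicate number but not the parental direction. Direction was taken from the sample sheet of the study, in which red is paternal in replicates 1 to 3 and green is paternal in replicates 4 and above at both ages, so that colour and direction are not the same split. The 39 libraries came from 6 embryos at E13 and 7 at E16, with 1 red, 1 green and 1 yellow library of 200 to 400 cells from each, and no embryo was treated. Libraries were assigned to an embryo by age and replicate number. For E16 replicate 3 the sample sheet gives the yellow library a different cross code from its red and green partners. Every group carried the cassettes and the Cre driver.

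The 36 libraries with 40% or more uniquely aligned reads were used, 5 of each kind at E13 and 7 at E16, and they held between 472924 and 5205788 reads counted in genes. Values are given as CPM, read counts relative to library total, scaled by the effective library size. The study left out 4 of these 36: E13 yellow replicate 2, E16 yellow replicate 7 and E16 red replicates 5 and 6. By the outlier criterion given at the end they held 4, 3, 1 and 4 flags in the genes described. E13 green replicate 1, which the study used, held 3. The labelled tissue was checked against marker genes. All 9 radial glia markers and all 10 projection neuron markers were detected, and the summed level of 6 microglia markers did not exceed 79.7 CPM in any library. The summed level of 5 erythroid markers ran from 0.214 to 52825 CPM. Pools of cells were measured, so fewer cells with a transcript and less transcript per cell cannot be told apart.

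The promoters of the genes were searched for the consensus of the p53 half-site, 10 bases that are their own reverse complement and so are read alike on both strands. RefSeq windows of GRCm38.p6 were found for 34 of the 37 genes, and the 250 bases before each start were read. The half-site stood in 5 of 46 windows, 1 each for Trp53, Bax, Mdm2, Ccng1 and Bmf, which is 10.9% against 7.13% of all 32851 windows. The 4 stretches of genes that passed the count minimum are shown because they place the p53 motif beside p53 itself, its inhibitor and established target genes, with the match in capitals. A match describes the letters alone and is not evidence of binding.
Trp53, chr11:69580259-69580318, plus strand: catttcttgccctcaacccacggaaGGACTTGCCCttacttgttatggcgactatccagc
Bax, chr7:45467065-45467124, minus strand: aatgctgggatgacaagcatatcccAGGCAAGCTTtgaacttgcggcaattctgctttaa
Mdm2, chr10:117710910-117710969, minus strand: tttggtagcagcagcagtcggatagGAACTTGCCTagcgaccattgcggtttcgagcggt
Ccng1, chr11:40755437-40755496, minus strand: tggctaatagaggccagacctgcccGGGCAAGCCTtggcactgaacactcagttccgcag

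The level of the genes was read first, to see which arms of the pathway these cells transcribe. Compared per kilobase of exon, Bok, a BAX relative that can form pores, stood highest, with a mean over the 36 libraries of 87.6 ± 37.4 CPM per kb (SD). Mcl1, a guardian needed for the survival of cortical progenitors, followed at 42.1 CPM per kb, ahead of Bnip3l, a mitophagy receptor, at 40.2, Bad at 32.2 and Diablo, which antagonises caspase inhibitors, at 21.8. Trp53 was sixth at 17.6 CPM per kb, followed by Mdm2. These 7 genes held the highest means. Below Bok and down to Mdm2, each mean differed from the next by less than the larger of their SDs between libraries. The SD describes the spread of single libraries, and the order of the means was not tested.

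Among the p53 targets that trigger death, Bbc3 and Pmaip1 were near or below the limit of detection, whereas Bax was seen in 35 of 36 libraries at 8.74 CPM per kb. Bbc3 had a mean count of 1.42 and was seen in 13 of 36 libraries, with no library above 4.02 CPM. Pmaip1 was seen in 1 library, and Bak1 and the death receptor gene Fas had no count in any library. Endog, Bmf and Casp8 also missed the count minimum, with mean counts of 7.19, 2.64 and 7.00. Just above the minimum were Bid at 11.1, Fadd at 13.2 and Hrk at 16.9. In these libraries 3 counts correspond to 0.525 to 5.81 CPM, so a gene at 0 was not detectable at this depth rather than shown to be absent. Casp9, the initiator caspase, had a mean of 7.89 CPM per kb, cytochrome c (Cycs) of 5.31 and Apaf1 of 3.40.

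**Figure D1:**
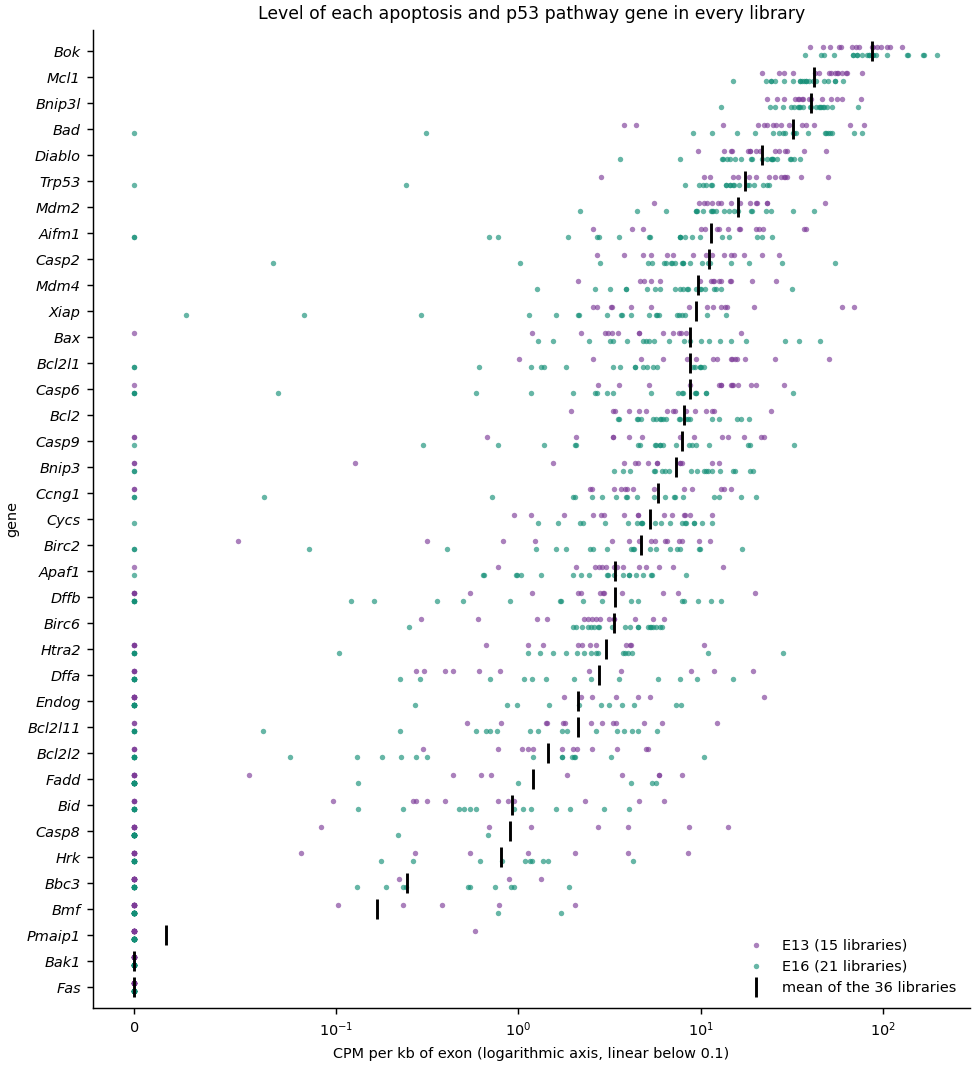
Level of each of the 37 genes in CPM per kilobase of exon on a logarithmic axis that is linear below 0.1, with 1 point per library (15 at E13, 21 at E16) and a black bar at the mean of the 36 libraries. Bok stands at the top with a mean of 87.6, while Bbc3, Bmf, Pmaip1, Bak1 and Fas lie at or near 0.

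The first comparison asked whether cells with patUPD, which lack an expressed Cdkn1c allele, differ in these genes from cells with matUPD of the same embryo. Cdkn1c itself checked the direction. At E13 it stood at 210.2, 279.6, 111, 62.7 and 57.8 CPM in the 5 matUPD libraries and at 117, 11.2, 31.0, 0 and 0 CPM in the 5 patUPD libraries. At E16 the matUPD libraries ran from 29.7 to 226 CPM (median 81.3) and the patUPD libraries from 0 to 13.7 CPM (median 0). Over both ages the log2 fold change of Cdkn1c was -5.35 ± 1.03 (SE), with an adjusted p of 0.0237 in edgeR's quasi-likelihood test with the embryo as a block and Benjamini-Hochberg adjustment over all genes tested.

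None of the apoptosis and p53 pathway genes was called between patUPD and matUPD by that test over both ages, where 12 embryos gave both kinds of library. Of 30 genes tested, 0 had an adjusted p under 0.05, against 0.0697% of all genes, and 0 had an unadjusted p under 0.05, against 2.33% of all genes. The log2 fold changes were positive for 16 and negative for 14, with a median of 0.05 beside 0.02 over all genes. Within single embryos the median difference of the 30 genes, on the log2 scale, ran from -0.61 to 2.29 and was above 0 in 6 of 12. Without the 2 embryos of E16 red replicates 5 and 6, which held the highest values, it ran from -0.61 to 0.61 and was above 0 in 4 of 10. At E13 (5 embryos) 0 of 32 genes were called, as were 0% of all genes, and 2 had an unadjusted p under 0.05, against a share of 2.24% over all genes. These 2 were Hrk and Bid, which passed the count minimum through the group in which they were high. At E16 (7 embryos) 0 of 28 were called, against 0.0278% of all genes, and 1 had an unadjusted p under 0.05, against 2.31%. This gene was Bok, with a log2 fold change of 0.77 ± 0.36 (SE) at E16. The difference between the ages was tested as an interaction. No gene of the list was called in it, as 0% of all genes were, and Hrk and Bid, 2 of 30, had an unadjusted p under 0.05, against 2.54% of all genes. In this fit and in that over both ages, Hrk passed the count minimum only through the matUPD group of E13, with 330 of 608 counts. Bid passed only through the patUPD group of E13, with 166 of 400. Their values in both fits are therefore a description and support no difference.

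**Figure D2:**
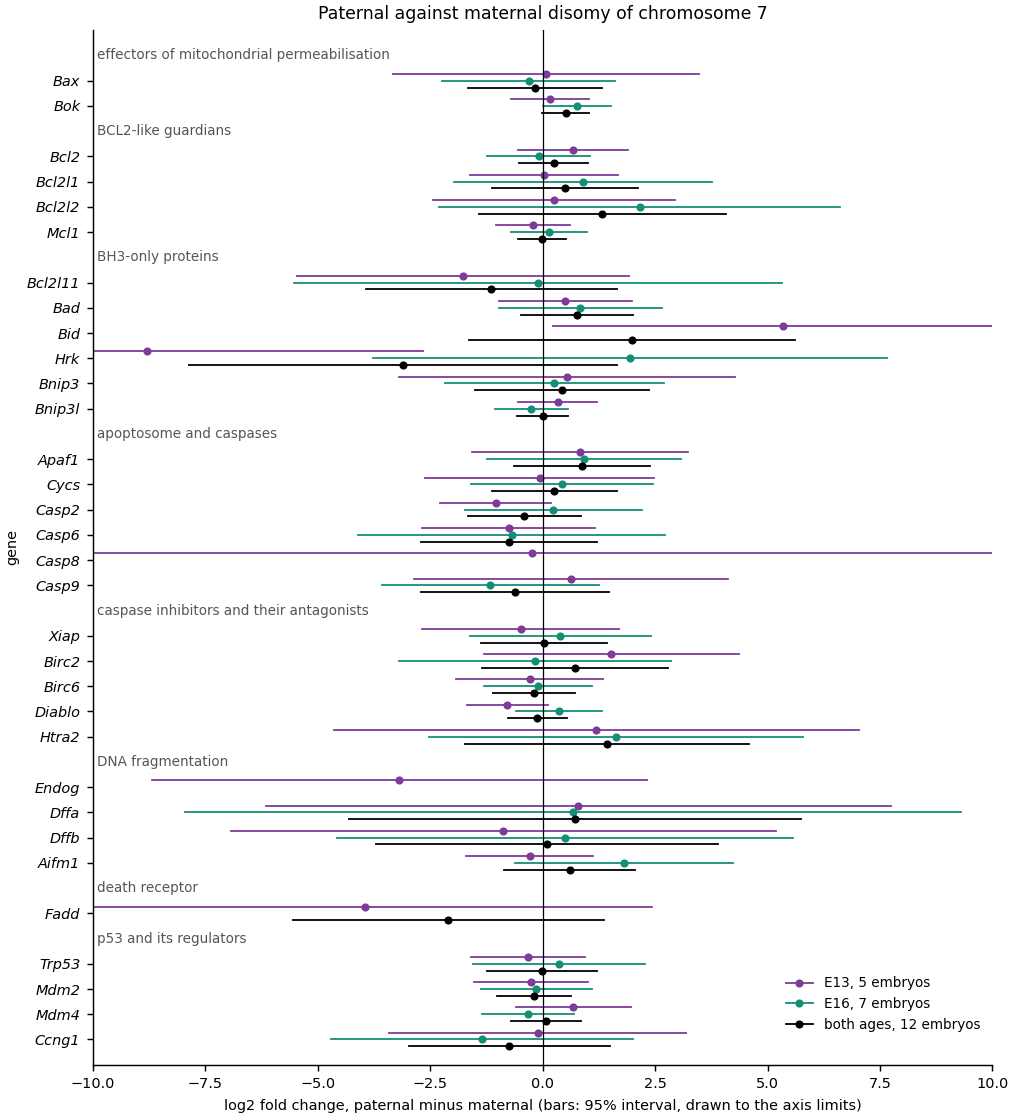
Log2 fold change of patUPD over matUPD for each gene tested, with its 95% interval, in groups by role, at E13, at E16 and over both ages. The points over both ages lie between -3.10 (Hrk) and 1.99 (Bid), and every interval over both ages includes 0. Hrk and Bid passed the count minimum of that fit only through the matUPD and the patUPD group of E13, respectively.

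Among p53 and its regulators, Trp53 stood in the matUPD libraries of E13 at 116, 112, 96.4, 118 and 202 CPM and in the patUPD libraries at 81.2, 121, 104, 143 and 42.3 CPM. At E16 it ran from 0.973 to 89.1 CPM (median 56.0) in matUPD and from 41.9 to 94.0 CPM (median 61.8) in patUPD. The groups overlapped at both ages, and Trp53 was higher in patUPD in 8 of 12 embryos, with a log2 fold change over both ages of -0.01 (95% interval -1.23 to 1.21, adjusted p = 1 in edgeR's quasi-likelihood test). Mdm2, which encodes the ubiquitin ligase that destroys p53 and is itself a p53 target, had a log2 fold change of -0.19 (-1.01 to 0.63) and was higher in 5 of 12 embryos. Mdm4, its non-catalytic partner, had 0.08 (-0.70 to 0.86), and Ccng1, a p53 target that acts back on MDM2, had -0.74 (-2.97 to 1.49).

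Among the effectors of mitochondrial permeabilisation, Bok had the smallest unadjusted p of the genes with positive values. At E13 Bok stood at 73.2, 161, 131, 109 and 179.9 CPM in matUPD and at 94.4, 125, 106, 236 and 202 CPM in patUPD. At E16 it ran from 68.9 to 309 CPM (median 126) in matUPD and from 132 to 366 CPM (median 193) in patUPD. The groups overlapped at both ages. Bok was higher in patUPD in 8 of 12 embryos, with a log2 fold change of 0.52 ± 0.26 (SE), an unadjusted p of 0.0539 and an adjusted p of 1 in edgeR's quasi-likelihood test. The highest matUPD value at E16 came from red replicate 6. Without the 4 further libraries that the study left out, the log2 fold change of Bok was 0.63 with an unadjusted p of 0.00920 and an adjusted p of 0.998. Bax, which forms the mitochondrial pore, had a log2 fold change of -0.17 (-1.67 to 1.32) and was higher in patUPD in 4 of 12 embryos.

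All 4 guardians were tested, and 0 were called. Mcl1 was the most precisely measured gene of the list besides Bok, with a log2 fold change over both ages of -0.02 (-0.55 to 0.52). Its E13 values were 179, 215, 192, 172 and 194 CPM in matUPD and 92.0, 188, 204, 219 and 145 CPM in patUPD. Those groups overlapped, as they did at E16, where Mcl1 ran from 87.2 to 147 CPM in matUPD and from 83.3 to 208 CPM in patUPD. Bcl2 had a log2 fold change of 0.24 (-0.53 to 1.02) and Bcl2l1, which encodes BCL-XL, of 0.49 (-1.13 to 2.12).

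Of the 9 BH3-only genes, 6 were tested and 0 were called. Hrk, a BH3-only gene known for its induction in neurons deprived of trophic support, had the lowest unadjusted p of the list at E13. It had 0 counts in each of the 5 patUPD libraries of E13 and stood at 0.469, 22.6, 1.54, 48.3 and 6.42 CPM in the 5 matUPD libraries. These 2 groups did not overlap, although the lowest matUPD library held a single read. Hrk passed the count minimum at E13 only through the matUPD group, which held 330 of its 391 counts, so its fitted values are a description and support no difference. With 3 counts per patUPD library as the floor, the matUPD mean of Hrk at E13 was 18.6 times the mean floor. It was 10.3 times the floor without replicate 4, whose matUPD library held the 48.3 CPM. These ratios rest on the same matUPD group, where 2 libraries held 129 and 168 of the 330 counts, and likewise support no difference. In 2 of the 5 matUPD libraries Hrk was itself below 3 counts. Its fitted log2 fold change at E13 was -8.79 ± 2.70 (SE), a value that depends on the prior count of the fit, with an unadjusted p of 0.0103 and an adjusted p of 1 in edgeR's quasi-likelihood test. The yellow libraries of E13 held 0, 0, 0, 3.09 and 11.5 CPM. At E16 Hrk ran from 0 to 24.1 CPM (median 0) in matUPD and from 0 to 8.30 CPM (median 0.997) in patUPD, which overlapped. There too it passed the count minimum only through the matUPD group, with 121 of 217 counts, 99 of them in red replicate 6. Its log2 fold change at E16, 1.95 (-3.76 to 7.65), is likewise a description. DESeq2's Wald test called Hrk at E13 and in the difference between the ages, both of which rest on the patUPD group of E13 with every library at 0, whereas the quasi-likelihood test gave both an adjusted p of 1.

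Bid, which links death receptors to mitochondria, had a positive value at E13. It stood at 1.41, 0.350, 0, 0 and 0 CPM in matUPD and at 0, 16.3, 1.11, 3.35 and 22.5 CPM in patUPD, groups that overlapped near 0. Bid passed the count minimum at E13 only through the patUPD group, with 166 of 227 counts and 92 of them in 1 library, so its fitted value is likewise a description. Its log2 fold change at E13 was 5.34 ± 2.36 (SE), with an unadjusted p of 0.0419 and an adjusted p of 1 in edgeR's quasi-likelihood test. Bad, a BH3-only gene regulated by growth factor signalling, was far better covered and was higher in patUPD in 10 of 12 embryos, 7 of 7 at E16. Bad ran from 0.794 to 132 CPM (median 72.9) in matUPD and from 51.0 to 197 CPM (median 85.0) in patUPD at E16. These groups overlapped, and its log2 fold change over both ages was 0.76 ± 0.61 (SE), with an adjusted p of 1. The lowest matUPD value of Bad was that of red replicate 5, and without the 4 further libraries that the study left out its log2 fold change was 0.48. Bcl2l11, which encodes BIM, had a log2 fold change of -1.14 (-3.92 to 1.64), and Bnip3l of -0.0010 (-0.57 to 0.56).

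Of the apoptosome and caspase genes, 5 of 6 were tested and 0 were called. Apaf1, the scaffold of the apoptosome, had a log2 fold change of 0.88 ± 0.74 (SE) and was higher in patUPD in 7 of 12 embryos. Casp9 had -0.62 (-2.70 to 1.46) and Cycs 0.25 (-1.13 to 1.64). Casp6, an executioner caspase, was lower in patUPD in each of the 5 embryos of E13 and in 4 of 7 at E16, with -0.75 (-2.71 to 1.21) over both ages. The groups of these genes overlapped at each age.

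All 5 caspase inhibitors and antagonists were tested and 0 were called. Xiap had a log2 fold change of 0.03 (-1.37 to 1.43) and Diablo of -0.12 (-0.77 to 0.53). For the genes of DNA fragmentation, Aifm1, Dffa and Dffb, the log2 fold changes lay between 0.09 and 0.72 and 0 of 3 were called.

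Of the 37 genes, 4 lie on chromosome 7 and so were themselves made disomic: Bax (chr7:45461697-45466898), Bbc3 (chr7:16308393-16318205), Bnip3 (chr7:138890836-138909519) and Fadd (chr7:144577318-144582463), in GRCm38 coordinates of the Gencode annotation. The count of Bbc3 was too low for the test, and 0 of the other 3 were called between the directions of UPD. Fadd, which couples death receptors to CASP8, stood at 23.0, 0, 23.1, 14.4 and 0 CPM in the matUPD libraries of E13 and at 7.26, 0, 0.223, 0 and 1.71 CPM in the patUPD libraries. It was at 0 in 5 of 7 libraries of each direction at E16. Its log2 fold change over both ages was -2.10 ± 1.66 (SE), with an adjusted p of 1, and it was positive, at 0.78, without the embryo block. Bnip3, a mitophagy receptor induced by hypoxia, had 0.43 (-1.50 to 2.36).

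**Figure D3:**
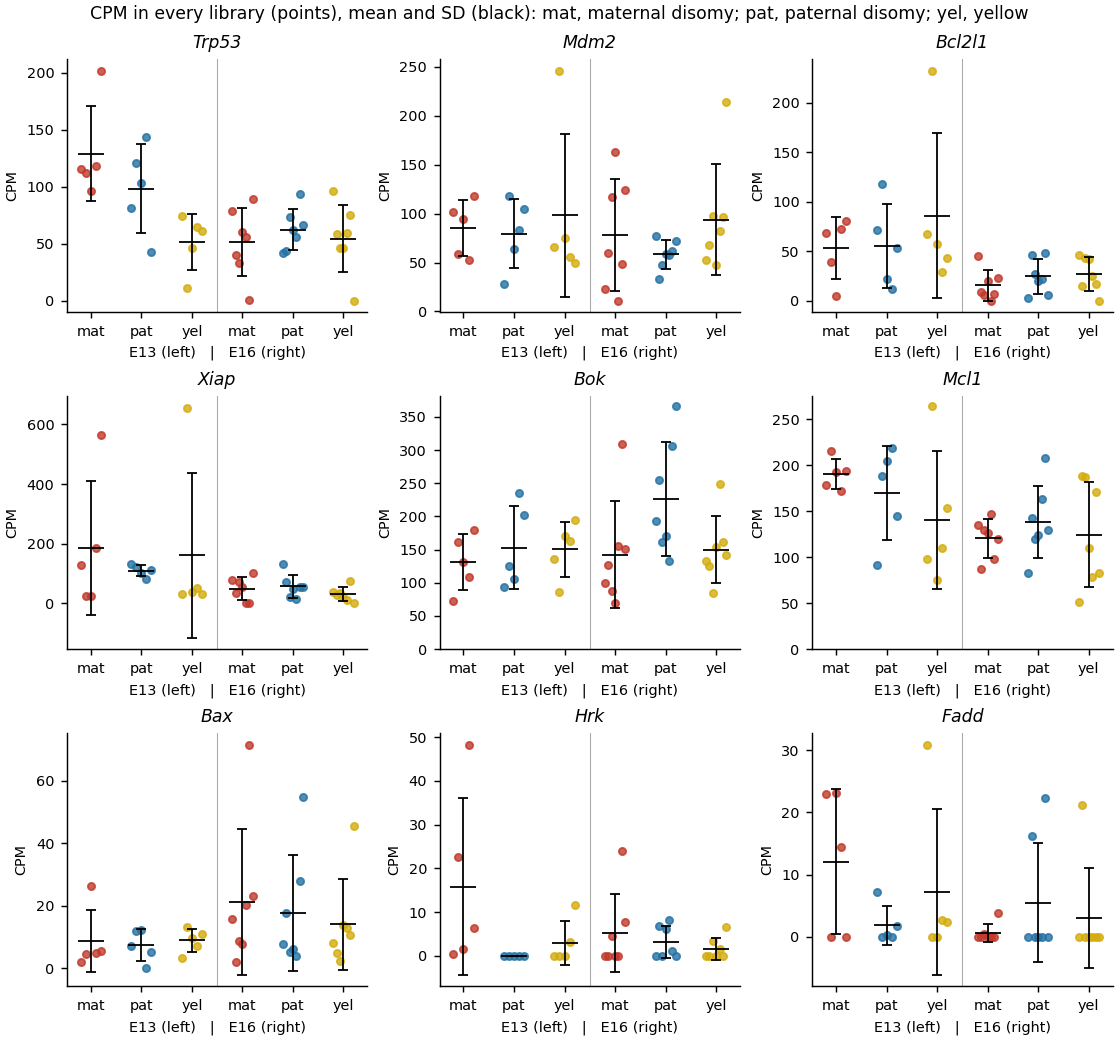
CPM of Trp53, Mdm2, Bcl2l1, Xiap, Bok, Mcl1, Bax, Hrk and Fadd in every library (points), with the group mean and SD in black, for matUPD (mat), patUPD (pat) and yellow (yel) libraries at E13 on the left and E16 on the right of each panel. Hrk is at 0 in all 5 patUPD libraries of E13, and the values of the other 8 genes overlap between matUPD and patUPD at both ages.

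The precision behind these values was uneven. Over both ages the 95% interval of the log2 fold change lay within 1 in either direction, a 2-fold difference, for 4 of 30 genes, namely Mcl1, Bnip3l, Diablo and Mdm4, and within 2, a 4-fold difference, for 13. For the other 17 genes a 4-fold difference between the directions was not excluded by the interval. The median SE over the list was 0.73, beside 0.89 over all genes tested.

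The second comparison set the singly coloured cells, both directions of UPD averaged, against the yellow cells of the same embryo, in 4 embryos at E13 and 7 at E16 with all 3 libraries. No gene of the list was called, and the intervals of 13 of 30 genes over both ages, and of 24 of 32 at E13, reached a 4-fold difference. Over both ages 0 of 30 were called, against 0.00872% of all genes, and 0 had an unadjusted p under 0.05, against 4.83%. At E13 0 of 32 were called, as were 0% of all genes, and 2 had an unadjusted p under 0.05, against 6.8%. At E16 0 of 28 were called, as were 0% of all genes, and 0 had an unadjusted p under 0.05, against 2.39%. The median log2 fold change over both ages was 0.04, beside -0.03 over all genes.

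Trp53 and Bad were the genes with an unadjusted p under 0.05 at E13. Trp53 stood at 74.7, 11.5, 45.8, 64.8 and 60.8 CPM in the yellow libraries of E13, against 42.3 to 202 CPM (median 114) in the 10 singly coloured libraries. The groups overlapped, and Trp53 was higher in the singly coloured cells in 4 of 4 embryos, with a log2 fold change of 1.38 ± 0.61 (SE), an unadjusted p of 0.0422 and an adjusted p of 0.722 in edgeR's quasi-likelihood test. The lowest yellow value came from replicate 2, and in the libraries the study used, without it, the log2 fold change of Trp53 was 0.91, with an unadjusted p of 0.112 and an adjusted p of 0.678. The summed level of the 9 radial glia markers differed in the same samples, at 2004 to 3427 CPM in the singly coloured libraries of E13 and 928 to 1756 CPM in the yellow ones, and that of the 10 projection neuron markers ran from 3469 to 5549 CPM and from 6582 to 8123 CPM. Their part in the Trp53 values was not tested. At E16 the log2 fold change of Trp53 was 0.09 (-1.58 to 1.76), with 0 CPM in yellow replicate 7, and it was -0.091 in the libraries the study used. Bad stood at 66.5, 201, 107, 64.1 and 92.8 CPM in the yellow libraries of E13 and ran from 9.77 to 169 CPM (median 58.1) in the singly coloured ones, with a log2 fold change of -1.46 ± 0.67 (SE), at an adjusted p of 0.722, and of -0.68 without E13 replicate 4.

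Over both ages the genes with the smallest unadjusted p and a positive value were Mdm4, with a log2 fold change of 0.58 (-0.17 to 1.33), Trp53 with 0.56 (-0.60 to 1.71) and Xiap with 0.67 (-0.76 to 2.09). On the negative side were Dffa, the inhibitor of the nuclease DFFB, with -2.56 (-5.47 to 0.36), Mdm2 with -0.38 (-1.10 to 0.34) and Bcl2 with -0.34 (-1.03 to 0.36). Each had an adjusted p of 1. Mdm2 was lower in the singly coloured cells in 9 of 11 embryos, and its 2 highest yellow values were the 246 CPM of E13 replicate 2 and the 214 CPM of E16 replicate 7. Without the 4 further libraries that the study left out, the log2 fold change of Mdm2 was 0.036. The value of Xiap without them was 1.27, with an unadjusted p of 0.00809 and an adjusted p of 0.607. The intervals of Bok, Mcl1, Bnip3l and Diablo lay within a 2-fold difference in either direction.

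The third comparison set E16 against E13, in the yellow cells (7 and 5 libraries) and in the singly coloured cells, where the red and green counts of an embryo were summed (7 and 5 embryos). The same embryos gave both, so their values are set side by side and not read as repeats of each other. In yellow cells 0 of 27 genes were called, against 0.149% of all genes, and 1 had an unadjusted p under 0.05, against 8.69%. In singly coloured cells 0 of 32 were called, against 3.24% of all genes, and 5 had an unadjusted p under 0.05, against 19.7%. All 5 of those had negative values, and 1 of them, Casp8, passed the count minimum through E13 alone. The median log2 fold change in singly coloured cells was -0.27, beside 0.06 over all genes, and 20 of 32 values were negative. In yellow cells the median was -0.05, beside -0.06 over all genes.

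Trp53 had the smallest unadjusted p of the list between the ages. Its singly coloured libraries ran from 42.3 to 202 CPM (median 114) at E13 and from 0.973 to 94.0 CPM (median 58.4) at E16. The groups overlapped, and the log2 fold change of the summed counts was -0.95 ± 0.28 (SE), with an adjusted p of 0.0771 in edgeR's quasi-likelihood test. It missed the threshold there and passed it in DESeq2's Wald test, at an adjusted p of 0.00393, and without E16 replicate 7, at 0.0426. DESeq2's Wald test called 1277 of all 12797 genes in this comparison, beside 414 in edgeR's quasi-likelihood test. Over all alternatives the adjusted p of Trp53 ran from 0.00393 to 0.173 and its log2 fold change from -1.26 to -0.69. In yellow cells Trp53 had a log2 fold change of 0.08 (-1.76 to 1.92), with levels of 11.5 to 74.7 CPM at E13 and 0 to 96.4 CPM (median 58.3) at E16. Whether the change with age differed between the singly coloured and the yellow cells was not tested.

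Bcl2l1, the guardian BCL-XL of differentiating neurons, stood at 68.5, 38.7, 4.63, 72.4 and 80.9 CPM in matUPD and at 71.3, 118, 21.6, 11.7 and 53.5 CPM in patUPD libraries of E13. At E16 the 14 singly coloured libraries of Bcl2l1 ran from 0 to 48.1 CPM (median 20.0). The groups overlapped, and the log2 fold change was -1.46 ± 0.47 (SE), with an adjusted p of 0.0989 in edgeR's quasi-likelihood test and of 0.0192 in DESeq2's Wald test. In yellow cells Bcl2l1 had -1.67 ± 0.88 (SE) and an adjusted p of 0.681. That value was -0.88 without E13 replicate 2, whose yellow library stood at 233 CPM beside 28.5 to 67.7 CPM in the other 4. The 2 guardians measured with the narrowest intervals in singly coloured cells, Mcl1 and Bcl2, had log2 fold changes of -0.38 (-0.89 to 0.12) and 0.16 (-0.64 to 0.96).

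Xiap, which blocks caspases directly, ran from 24.3 to 566 CPM (median 116) in the singly coloured libraries of E13 and from 0.243 to 130.4 CPM (median 54.4) at E16. The groups overlapped, and the log2 fold change of Xiap was -1.51 ± 0.52 (SE), with an adjusted p of 0.113 in edgeR's quasi-likelihood test. It was -0.96 without E13 replicate 6, whose red library held the 566 CPM. Xiap passed the threshold in DESeq2's Wald test, at 0.0402, and when red, green and yellow counts were summed, at 0.0360. In yellow cells Xiap stood at 30.6, 656, 39.5, 50.4 and 31.1 CPM at E13 and ran from 2.76 to 74.5 CPM (median 29.2) at E16, with a log2 fold change of -2.41 ± 0.88 (SE), at an adjusted p of 0.341. It was -0.33 without E13 replicate 2, so that value rests on 1 library.

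The other genes with an unadjusted p under 0.05 in the singly coloured cells were Casp6, with a log2 fold change of -1.52 ± 0.60 (SE), and Casp8, the initiator caspase of death receptors, with -5.11 ± 2.01 (SE). Their adjusted p were 0.160 and 0.161 in edgeR's quasi-likelihood test. Casp8 was at 0 in 12 of 14 singly coloured libraries and in all 7 yellow libraries of E16, and in 5 of 10 singly coloured libraries of E13. It passed the count minimum only through E13, where 1 embryo held 180 of 205 counts, and missed it without that embryo, so its fitted value is a description that rests on 1 embryo. The genes with the smallest unadjusted p among positive values in singly coloured cells were Bax, with 1.63 ± 0.81 (SE), Bok with 0.57 ± 0.38 (SE) and Htra2, a mitochondrial protease that antagonises XIAP, with 1.47 ± 1.22 (SE). Bax ran from 0 to 26.2 CPM (median 5.35) at E13 and from 2.02 to 71.5 CPM (median 12.3) at E16, which overlapped, and its adjusted p was 0.282. Htra2 had a value of -0.035 without E16 replicate 7, whose green library stood at 83.1 CPM.

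**Figure D4:**
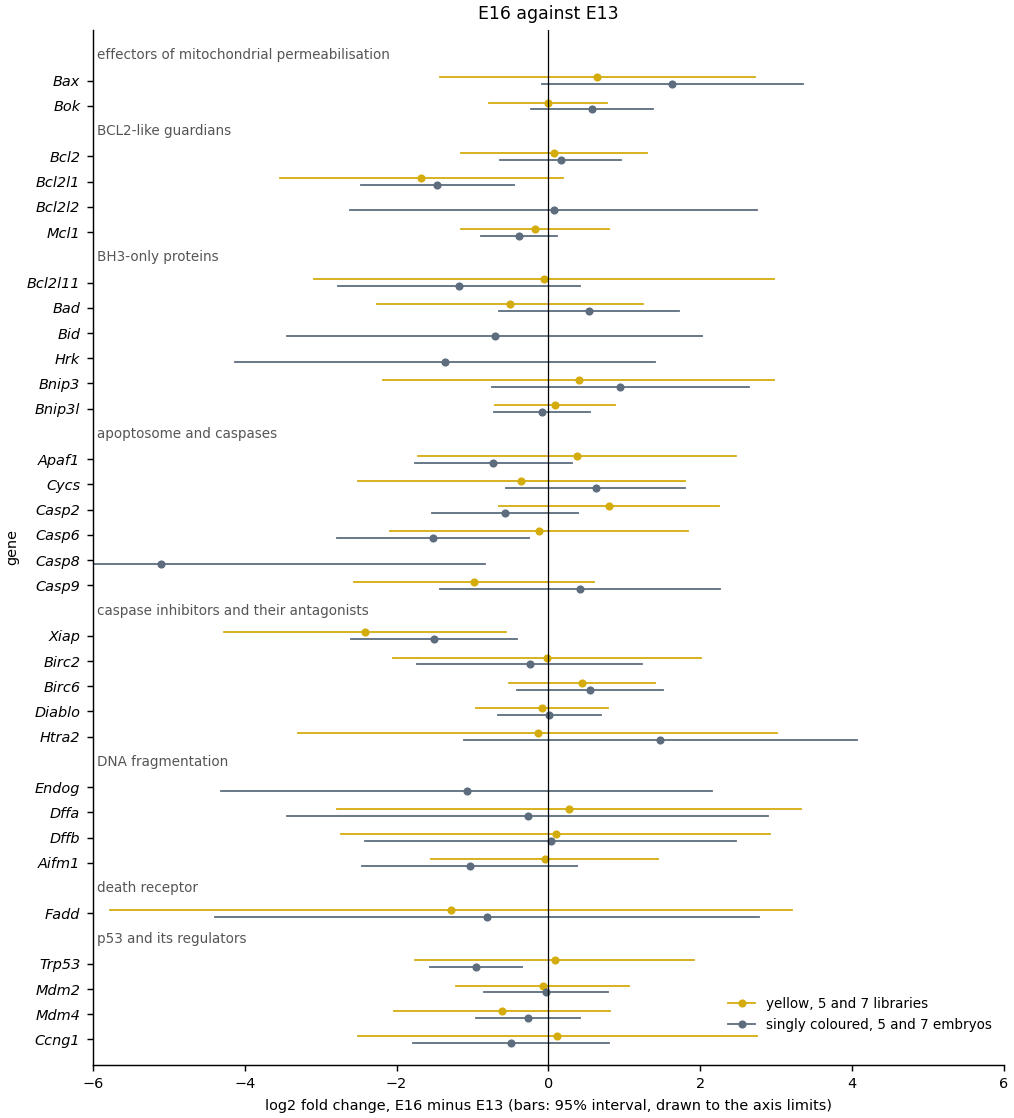
Log2 fold change of E16 over E13 for each gene tested, with its 95% interval, in yellow cells and in singly coloured cells, in groups by role. The intervals of Trp53, Bcl2l1, Xiap, Casp6 and Casp8 in singly coloured cells lie below 0, and none of these genes passed the adjusted threshold.

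In yellow cells the remaining genes with the smallest unadjusted p were Casp9, with a log2 fold change of -0.98 (-2.56 to 0.60), Casp2 with 0.79 (-0.66 to 2.24), Birc6, a giant inhibitor of apoptosis, with 0.44 (-0.52 to 1.40), and Bax with 0.64 (-1.43 to 2.72). Casp9 was at -0.46 without E13 replicate 2. Casp2 and Bax were near 0, at -0.050 and -0.0094, without E16 replicate 7, whose yellow library held 384 CPM of Casp2 and 45.6 CPM of Bax, the highest of the 7 for both. In singly coloured cells Apaf1 had -0.73 (-1.76 to 0.31), Cycs 0.62 ± 0.55 (SE), Ccng1 -0.49 (-1.78 to 0.80) and Mdm2 -0.03 (-0.85 to 0.78).

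Marker levels moved with age in the same libraries. From E13 to E16 the summed level of 6 intermediate progenitor markers in singly coloured libraries went from 960 to 1954 CPM (lowest and highest, median 1204) to 276 to 824 CPM (median 398), and that of 10 projection neuron markers from 3469 to 5549 CPM (median 4707) to 6909 to 14791 CPM (median 8419). Not every projection neuron marker went with the sum, and the median CPM of Tbr1 and of Bcl11b was lower at E16. The sum of the 9 radial glia markers overlapped between the ages, at 2004 to 3427 CPM and 856 to 3932 CPM. The 12 dissociation and stress genes summed to 178 to 1057 CPM at E13 and to 769 to 2335 CPM at E16. Their part in the values of the apoptosis genes was not tested.

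The wider pathway was read from 25 further p53 target genes and 20 further apoptosis genes. In the disomy comparison over both ages 21 and 14 of them were tested and none was called, against 0.0697% of all genes. In each list 1 gene had an unadjusted p under 0.05, against 2.33% of all genes. In the comparison of singly coloured with yellow cells over both ages none was called either, against 0.00872% of all genes. There 1 and 0 had an unadjusted p under 0.05, against 4.83% of all genes. Cdkn1a, the cell cycle inhibitor p21 and a standard readout of p53 activity, was at 0 in 27 of 36 libraries and did not reach the count minimum over all libraries, with at most 16.9 CPM in any of them.

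Between the ages, 1 of 20 further p53 targets was called in yellow cells, against 0.149% of all genes, and 2 of 22 further p53 targets and 1 of 14 further apoptosis genes in singly coloured cells, against 3.24%. Gtse1, 1 of those 2 p53 targets, passed the count minimum only through E13. No excess over the share of all genes is therefore read from these counts. Plk2, a polo-like kinase induced by p53 and by neuronal activity, rose from E13 to E16 in both kinds of cell, with a log2 fold change of 2.15 ± 0.37 (SE), at an adjusted p of 0.0275 in yellow cells and of 3.74 ± 0.69 (SE), at 0.00857, in singly coloured cells, by edgeR's quasi-likelihood test. Plk2 ran from 73.3 to 222 CPM in the yellow libraries of E13 and from 341 to 1050 CPM in those of E16, groups that did not overlap. The singly coloured libraries of E13 held 0 to 444 counts of Plk2, with 0 in green replicates 4 and 6 and 6 in red replicate 6. Whether the rise differed between the 2 kinds of cell was not tested. Gtse1, a G2 and S phase protein that restrains p53, had a log2 fold change of -5.93 in singly coloured cells. Its adjusted p was 0.0312 in edgeR's quasi-likelihood test. The singly coloured libraries held 0 to 633 counts of Gtse1 at E13, the highest in red replicate 6, and 0 to 15 at E16. Gtse1 thus passed the count minimum only through E13, so its fitted value is a description and supports no difference. Birc5, which encodes survivin, a member of the inhibitor of apoptosis family that also works in chromosome segregation, fell by 2.38 (adjusted p = 0.0107 in the same test), from 175 to 372 CPM at E13 to 6.98 to 149.98 CPM at E16. Gtse1 and Birc5 are also genes of dividing cells. In yellow cells their log2 fold changes were -2.49 ± 1.90 and -2.57 ± 1.04 (SE), with adjusted p of 0.889 and 0.415.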

How the data were processed

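RNA from pools of sorted cells was converted to libraries by Smart-Seq2, which keeps neither strand nor molecular identifiers. Alignment by the authors used STAR 2.5.0c and GRCm38 with the Gencode M16 annotation. The deposited values are raw counts of reads per gene, 1 table a library, not normalised. The unstranded column was used, since the stranded columns summed to a similar share of it (medians 54.6% and 53.0%). Reads shared by overlapping or antisense genes therefore cannot be told apart. Symbols came from Gencode M21 by gene identifier (53274 of 53379 genes). Age and colour were read from the labels, and the parental direction from the sample sheet of the study.

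Libraries with under 40% uniquely aligned reads were left out (of E13, yellow 3, red 5 and green 5). Genes with a mean count of 10 or more in the libraries of a fit were tested with edgeR 4.0.16 (R 4.3.3), TMM scaling and the quasi-likelihood test, with Benjamini-Hochberg adjustment over all genes tested and a threshold of 0.05. The embryo was a block in the disomy and colour comparisons, because red, green and yellow cells of a number were taken to come from 1 embryo. Deviations from the group means correlated by a mean of 0.044 (E13) and 0.029 (E16) between libraries of the same number, and by -0.0092 and -0.0036 between numbers. The age comparisons had no block. Intervals are 95% intervals of the fitted log2 fold change and floors are 3 counts. Without molecular identifiers a floor covers counting error only.

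The members and lists were chosen with earlier results of these data known. Values are given for Trp53, Mdm2, Ccng1, Bax, Bbc3, Bcl2, Bcl2l1, Mcl1, Apaf1, Casp9 and Cycs in every case, for any member past the threshold, and for the 3 members with the smallest unadjusted p in each direction in the comparisons over both ages and between ages. Values of Hrk, Bid and Bad at single ages, Casp6, Casp8 and genes of chromosome 7 were added after their values were seen. The alternatives were DESeq2 1.42.0 (Wald test), its size factors in edgeR, no count filter, all libraries, the 32 libraries the study used, no block, a term for colour, red, green and yellow summed, and each embryo left out.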

Additional observations from a re-analysis of the deposited data

Results flagged for a closer look

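In 125 groups of 5 or 7 libraries of the genes described, 30 held a library whose CPM lay far outside the others by Dixon's criterion. For normally distributed values chance alone gives this in about 1 group in 20. The CPM values were not tested for that and several groups held many libraries at 0, so no excess over chance is read from the count. Some flags rest on few reads, such as Fadd in E16 red replicate 7, with 2 counts. The 30 flags fell on 15 genes. E16 red replicate 6 and E13 yellow replicate 2 held 4 flags each, and E13 green replicate 1 and E16 yellow replicate 7 held 3 each.

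E13 yellow replicate 2 stood above its group in Xiap (656 CPM), Mdm2 (246 CPM) and Bcl2l1 (233 CPM) and below it in Cycs (3.99 CPM). E16 yellow replicate 7 stood above its group in Casp2 (384 CPM), Mdm2 (214 CPM) and Bax (45.6 CPM). In the matUPD group of E16, red replicate 6 stood apart in Bok (309 CPM), Bax (71.5 CPM), Htra2 (32.4 CPM) and Hrk (24.1 CPM), red replicate 5 in Mdm4 (469 CPM), red replicate 4 in Dffa (34.0 CPM), red replicate 7 in Fadd (3.87 CPM) and green replicate 3 in Casp2 (198 CPM) and Bcl2 (146 CPM). In the patUPD group of E16, green replicate 7 stood apart in Htra2 (83.1 CPM), green replicate 4 in Ccng1 (41.7 CPM) and green replicate 6 in Dffa (20.7 CPM).

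In the matUPD group of E13, red replicate 6 stood apart in Trp53 (202 CPM), green replicate 3 in Bax (26.2 CPM) and green replicate 1 in Dffa (69.0 CPM), Cycs (39.4 CPM) and Htra2 (31.0 CPM). In the patUPD group of E13, red replicate 2 stood apart in Dffa (31.5 CPM) and red replicate 1 in Fadd (7.26 CPM). In the yellow libraries, E13 replicate 4 stood apart in Ccng1 (47.5 CPM), E13 replicate 1 in Fadd (30.9 CPM), E13 replicate 6 in Hrk (11.5 CPM) and E16 replicate 2 in Fadd (21.1 CPM). No gene moved one way in every embryo of E13 and the opposite way in every embryo of E16.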

How the results depend on the processing

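Of 143 counts of called members under the alternatives, 138 were 0. The exceptions were DESeq2's Wald test, which called 1 member between disomies at E13 and 1 in the difference between the ages (Hrk in both) and 3 in singly coloured cells between the ages, the sum of red, green and yellow counts, which called 1 there, and leaving out single embryos, which gave 0 to 1 there. Between the ages in singly coloured cells DESeq2's Wald test called 1277 of all 12797 genes, beside 414 in the main fit. Its 3 of 32 members stand beside that share and are not read as a result about the members. The median log2 fold change of the members moved beyond the spread between embryos with all libraries kept in singly coloured against yellow cells at E13 (-0.42), and with embryos left out it ran from -0.35 to 0.13 for the disomies at E13 and from -0.18 to 0.18 for singly coloured against yellow cells at E13. Without the replicate block the disomy comparison called 0 members at either age and over both, with a median of -0.02 over both ages, and the value of Fadd over both ages turned to 0.78. Other values that changed sign were those of Mdm2 in singly coloured against yellow cells (0.036 in the libraries the study used), Birc6 in yellow cells between ages (-0.076 with all libraries), and, without E16 replicate 7, Bax and Casp2 in the same comparison and Htra2 in singly coloured cells between ages. With single embryos left out these ran from -0.0094 to 0.82, from -0.050 to 1.21 and from -0.035 to 1.75. None of these had passed the threshold, and their causes were not tested. Of 443 values of named members under the alternatives, 432 had the direction and the call reported. Counts over all genes moved more: between the ages in singly coloured cells 414 genes were called, and 55 to 1277 under the alternatives, and between disomies over both ages 8, and 4 to 88, with the highest counts from DESeq2. In yellow cells between ages 17 genes were called, 1 without E13 replicate 4 and 31 without E16 replicate 7. Many libraries of Hrk, Fadd, Bid, Casp8 and Dffa are at 0, which limits what their values show. The part of sequencing depth in this was not tested.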
